A study of Mus musculus with 8 samples.

Results

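The Zfp genes are mouse genes named for a zinc finger protein and numbered in order of naming, and they were taken here by name: rows of the 24-h table whose official symbol is Zfp followed by a number, with or without further letters and digits. Of 413 such rows, 211 exceeded 10 TPM in at least 1 of 8 libraries and are described below, out of 55414 genes in the table. TPM is a gene's length-corrected share of the transcripts in a library, scaled to the same total in each library. The choice therefore used the measured level: 190 genes exceeded 10 TPM in both groups, 18 only in the tolvaptan group and 3 only in the dDAVP group, and of the 202 rows below the limit 8 were listed at 0 in every library. Just inside the limit were Zfp677 (maximum 10.12 TPM), Zfp316 (10.14), Zfp442 (10.14) and Zfp398 (10.26), and just outside were Zfp40 (9.94), Zfp850 (9.9), Zfp516 (9.77) and Zfp429 (9.28).

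The cells were mpkCCD, an immortalized mouse cortical collecting duct line from mice carrying a viral large T antigen transgene, grown as 1 re-cloned line on permeable supports. All 8 libraries came from cells given 0.1 nM dDAVP (desmopressin), an agonist of the V2 vasopressin receptor. For 24 h, 4 of them also received 50 nM tolvaptan, a V2 receptor antagonist, and the other 4 received vehicle. The comparison shows how the mRNA of each gene differed when the receptor was blocked during agonist exposure. No untreated library enters it.

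The name says little about function. A classical C2H2 zinc finger holds a zinc ion between a pair of cysteines and a pair of histidines, and arrays of such fingers read DNA. Many of these proteins also carry a KRAB domain, which recruits the corepressor TRIM28 and the histone methyltransferase SETDB1, and through them silences retroelements and other targets. Genes of this type lie in clusters of recently duplicated copies. Others have no KRAB domain and act as ordinary activators or repressors, and the Zfp36 branch has CCCH fingers that bind AU-rich elements in mRNA and bring it to the CCR4-NOT deadenylase for decay.

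The coding sequences of GENCODE M21 separated these branches. A C2H2 match was a cysteine pair 2 to 4 residues apart, a 12-residue loop and a histidine pair 3 to 5 residues apart. A KRAB core was the 8-residue stretch Leu-Tyr, any pair, Val-Met, any residue, Glu. Of the 211 genes, 96 matched the KRAB core and 107 had C2H2 fingers without it. A further 3 had CCCH fingers, and 5 matched none of these (Zfp750, Zfp330, Zfp839, Zfp185 and Zfp125). The number of C2H2 matches ran from 0 to 36 with a median of 9. A protein without a match can still carry a variant of the domain.

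Coding stretches are shown 5′ to 3′ on the coding strand, with coordinates of GRCm38, an earlier assembly than that of the Ensembl release the authors used. The first set, KRAB cores with capitals on the codons of the fixed residues, is shown because these genes moved in opposite directions: Zfp54, Zfp52 and Zfp948, neighbours on chromosome 17, and Zfp950 were lower with tolvaptan, and Zfp251 and Zfp26 were higher.
Zfp54, chr17:21430273-21430296, plus strand: CTGTACattgaaGTGATGttgGAG
Zfp52, chr17:21557213-21557236, plus strand: TTGTACattgatGTGATGgtaGAG
Zfp948, chr17:21584858-21584881, plus strand: TTGTACattgacGTGATGgtgGAG
Zfp950, chr19:61127463-61127486, minus strand: CTCTACagagatGTGATGctgGAG
Zfp251, chr15:76870307-76870330, minus strand: CTGTACcgggatGTGATGttgGAG
Zfp26, chr9:20441354-20441377, minus strand: CTCTACagagatGTGATGctgGAG
The 24 bases printed for Zfp950 and for Zfp26 are identical, although Zfp950 fell and Zfp26 rose.

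The second set shows the first finger matched in 2 C2H2 and 3 CCCH genes, with the codons of the zinc-binding residues in capitals. Zfp664 was the most abundant gene that rose, Zfp52 is a KRAB gene that fell, and the CCCH fingers belong to the mRNA decay proteins.
Zfp664, C2H2, chr5:124885556-124885618, plus strand: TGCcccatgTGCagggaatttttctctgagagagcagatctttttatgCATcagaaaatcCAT
Zfp52, C2H2, chr17:21560453-21560515, plus strand: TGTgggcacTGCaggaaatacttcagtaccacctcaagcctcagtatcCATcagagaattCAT
Zfp36, CCCH, chr7:28378158-28378217, minus strand: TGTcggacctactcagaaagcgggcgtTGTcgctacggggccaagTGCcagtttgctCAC
Zfp36l1, CCCH, chr12:80110189-80110248, minus strand: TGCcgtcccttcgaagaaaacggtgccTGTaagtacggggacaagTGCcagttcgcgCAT
Zfp36l2, CCCH, chr17:84186668-84186727, minus strand: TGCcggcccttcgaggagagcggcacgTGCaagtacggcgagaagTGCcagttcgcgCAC
Each of the 3 CCCH proteins holds 2 such fingers.

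Before any comparison, the library of tolvaptan replicate 4 has to be described, because it stood apart for these genes. It had the lowest TPM of the tolvaptan libraries for 120 of the 211 genes (56.9%), and for 78 of the 96 KRAB genes (81.2%), against 34.6% of all 9943 genes tested. Relative to the mean of the dDAVP libraries, the median KRAB gene differed by a log2 value of 0.07 to 0.10 in tolvaptan replicates 1 to 3 and of -0.20 in replicate 4. The median gene without a KRAB core lay 0.09 to 0.11 higher in replicates 1 to 3 and 0.18 higher in replicate 4. Across the 211 genes, the log2 difference of replicate 4 from the mean of the other tolvaptan libraries went with the GC content of the transcript (Pearson r = 0.82, Spearman rho = 0.84). The points share 1 library and its base composition, so this is a description. Over the 9835 tested genes with a GC content, the same comparison gave r = 0.45 and rho = 0.72, so the trend was not particular to Zfp genes. Across the 211 genes, the same measure for the other 7 libraries gave rho between -0.68 and 0.35. For tolvaptan replicates 1 to 3 (-0.68, -0.40 and -0.57) the mean compared includes replicate 4. For the dDAVP libraries rho was -0.34 to 0.35. The 20 other genes with a KRAB core, not named Zfp, had a median log2 difference of -0.35 in replicate 4 from the rest of its group. The main counts below are therefore given with and without this library. Its part in each result was not otherwise tested.

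**Figure D1:**
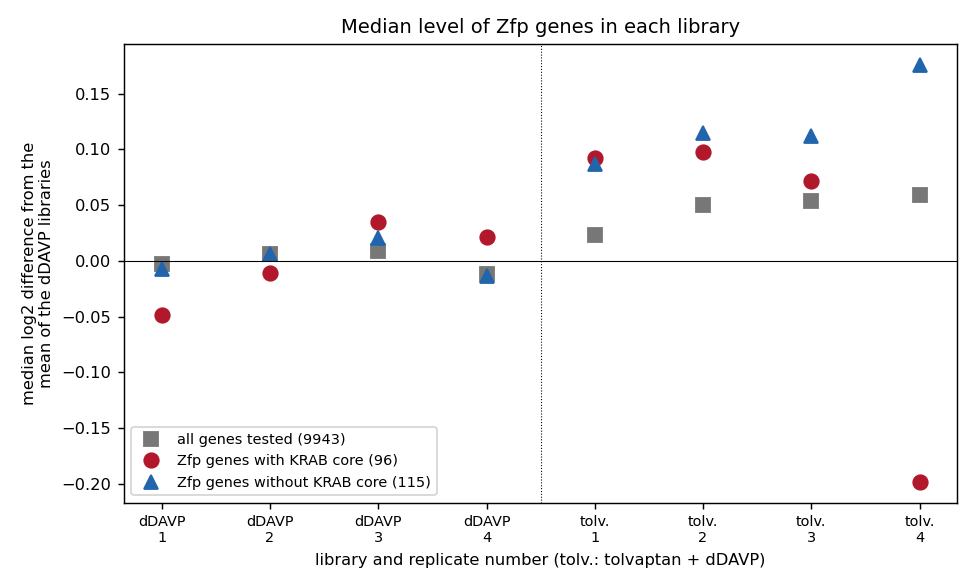
Median log2 difference from the mean of the dDAVP libraries (vertical axis) in each of the 8 libraries (horizontal axis), for all 9943 genes tested, the 96 Zfp genes with a KRAB core and the 115 without. The KRAB median lies between 0.07 and 0.10 in tolvaptan replicates 1 to 3 and at -0.20 in replicate 4.

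**Figure D2:**
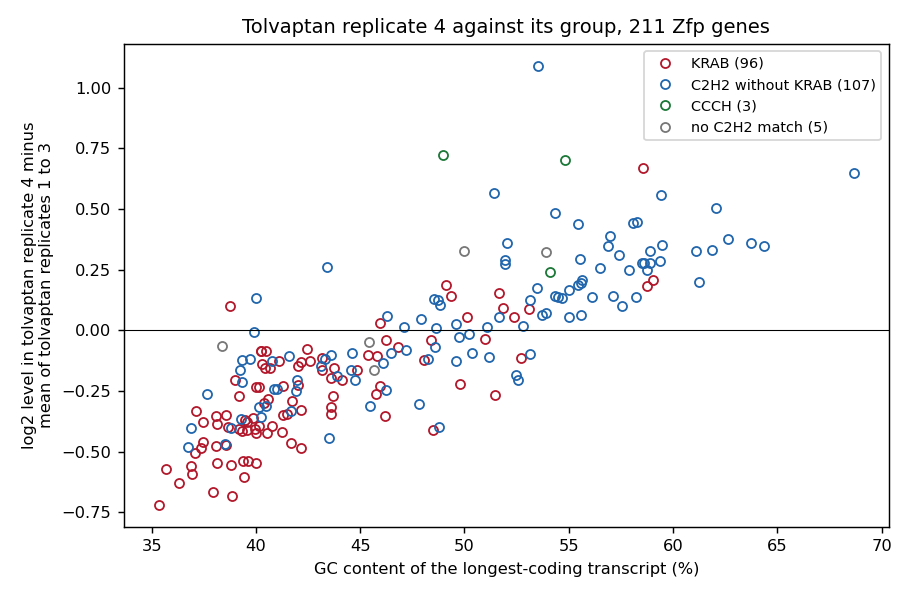
Log2 level in tolvaptan replicate 4 minus the mean of tolvaptan replicates 1 to 3 (vertical axis) against transcript GC content in percent (horizontal axis), 1 point per gene, coloured by class. The 211 points rise from left to right (Spearman rho 0.84), and KRAB genes lie mostly at the AT-rich, lower end.

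The other facts of the series bear on these genes as follows. Between 9203 and 9422 genes exceeded 10 TPM per library, and TPM keeps no record of sequencing depth, so the depth is unknown. Summed TPM of 12 principal cell markers was 10510 to 11230 with dDAVP and 5462 to 6644 with tolvaptan, without overlap. Krt18 and Aqp2 led the sum with dDAVP, at means of 5039 and 3050 TPM, against 3517 and 272 with tolvaptan. The markers did not move together. In the limma comparison described below, 6 of the 10 markers above 10 TPM fell, beside 6.10% of all genes. Scnn1a (log2 0.62, adjusted p = 0.00238) and Scnn1g (0.42, adjusted p = 0.0014) rose, beside 10% of all genes. Intercalated cell markers (8 genes) summed to 136.3 to 177 TPM with tolvaptan and 148 to 175.4 with dDAVP, leukocyte markers (8) to 22.02 to 26.05 and 19.57 to 23.54, proximal tubule markers (8) to 11.02 to 12.76 and 8.15 to 9.09, and fibroblast and endothelial markers (8) to 0.67 to 1.59 and 0.31 to 1.57. No marker was at 0 in all libraries. The proximal tubule sum did not overlap between groups, and its part in the results was not tested. In bulk RNA, fewer cells that express a gene and less mRNA per cell cannot be told apart. The labels do not say whether the libraries came from separate cultures, so p-values measure only the spread between these libraries.

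Most Zfp genes were expressed at modest levels that hardly differed between the groups. The median of their mean TPM was 23.44, with 149 genes between 10 and 50, 23 under 10 and 9 above 100. Together they held 7156.9 to 7649.3 TPM per library. The most abundant gene was Zfp706, which encodes a very small zinc finger protein, at 281.9 ± 31.7 TPM with tolvaptan and 266.0 ± 29.7 with dDAVP (mean ± SD, n = 4, as throughout). Next came Zfp207, a kinetochore and spindle protein that binds Bub3, at 232.0 ± 23.9 and 248.3 ± 3.78. The lowest value, 196.97 TPM, came from tolvaptan replicate 4, and replicates 1 to 3 had 238.17 to 250.32. Zfp410, an activator of the chromatin remodeler gene Chd4, held 171.9 ± 3.24 and 157.0 ± 5.72 TPM. Zfp7 held 134.9 ± 2.18 and 128.8 ± 2.89 TPM. None of these 4 passed an adjusted p of 0.05 with all libraries. Zfp410, whose groups did not overlap, passed without replicate 4 (0.12, adjusted p = 0.0403).

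Tolvaptan was set against dDAVP alone by limma on log2(TPM + 1) over the 9943 genes above 10 TPM, 2-sided, with adjustment over all of them. Fold changes are on that scale, which understates the change of low genes. At an adjusted p under 0.05, 20 of 211 Zfp genes rose (9.48%) and 6 fell (2.84%). Over all genes tested, 10% rose and 6.10% fell. Of the 26 calls, 4 were of genes that exceeded 10 TPM in only 1 group, through which they were chosen (Zfp651, Zfp974 and Zfp362 up, Zfp750 down), and among the 190 genes past the limit in both groups 17 rose and 5 fell. The rises were small, from 0.15 to 0.51 log2 units, with a median ratio of mean TPM of 1.23. Of the 211 genes, 162 lay within 0.2 log2 units of no difference, and only Zfp651 and Zfp750 lay beyond 0.5 in either direction. The median log2 fold change was 0.08, with 148 of 211 genes higher on average (70.1%). Over all genes it was 0.05, with 63.9% higher. These Zfp values include the 18 genes chosen only through tolvaptan and the 3 chosen only through dDAVP. They are not given for the 190 genes alone.

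These counts moved with the scaling and with tolvaptan replicate 4. The median over all genes was 0.045 log2 units higher in the tolvaptan libraries, and after every library was shifted to a common median 9 Zfp genes rose and 9 fell, beside 5.79% of all genes up and 8.30% down, with a median of 0.04. The rises after the shift were Zfp251, Zfp125, Zfp664, Zfp956, Zfp553, Zfp41, Zfp367, Zfp280b and Zfp821. The shift lowered every log2 fold change by 0.045, which enlarges each fall. Of the falls as deposited, all 6 were called again after it, and Zfp36, Zfp825 and Zfp933 were added. Zfp933 exceeded 10 TPM only in the dDAVP group, through which it was chosen. Without tolvaptan replicate 4, 36 Zfp genes rose (17.1%) and 7 fell, beside 14.1% and 8.39% of all genes. Of the original calls 19 rises and 4 falls were kept, and 17 rises and 3 falls were new. Without each of the other 7 libraries in turn, the count of rises was 8 to 19. Over all 9943 genes tested, the rises in those fits numbered 463 to 1019, against 994 with all libraries. Counted by libraries alone, the 4 tolvaptan values all lay above the 4 dDAVP values for 41 Zfp genes and below for 6. Over all genes this held for 15.1% and 7.99%. The Zfp counts include genes chosen through only 1 group.

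**Figure D3:**
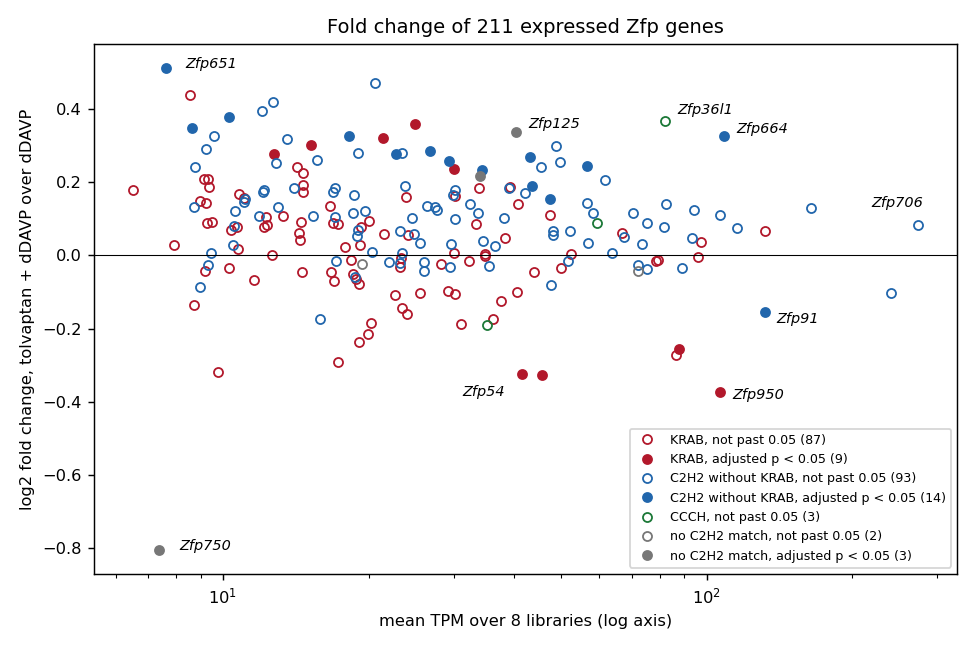
Log2 fold change with tolvaptan plus dDAVP over dDAVP alone (vertical axis) against mean TPM over 8 libraries (horizontal log axis) for 211 Zfp genes, coloured by class, filled where the adjusted p was under 0.05. The 26 filled points lie at small fold changes except Zfp750 at -0.80, and 4 of the 6 falls are KRAB genes.

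Of the 26 calls, 10 were kept in each of the 8 fits that left out 1 library: the rises of Zfp125, Zfp251, Zfp664, Zfp553, Zfp367, Zfp956, Zfp41 and Zfp821 and the falls of Zfp750 and Zfp91. The same 10 were also called after the shift to a common median, which enlarges the falls. How many of the calls over all genes were kept in all 8 fits is not given here.

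Among the rises, Zfp125 had 44.77, 47.17, 44.89 and 43.6 TPM with tolvaptan and 36.15, 35.11, 34.54 and 36.05 with dDAVP. GENCODE M21 lists it as a transcribed unprocessed pseudogene with no coding sequence. The groups were far apart relative to their spread, and the rise was 0.34 ± 0.04 (log2 ± SE, adjusted p = 0.000739). Zfp251, a KRAB gene, had 27.49, 27.66, 27.84 and 29.57 TPM with tolvaptan and 21.69, 21.92, 21.43 and 21.87 with dDAVP, a rise of 0.36 ± 0.05 (adjusted p = 0.000935). Here tolvaptan replicate 4 was the highest library, and the rise without it was 0.33.

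Zfp664 was the only gene that rose above 100 TPM on average with tolvaptan. It had 119.5, 123.64, 112.6 and 129.31 TPM with tolvaptan and 96.38, 92.87, 102.54 and 94.19 with dDAVP, a rise of 0.33 ± 0.05 (adjusted p = 0.00296). Zfp553 had 29.24, 27.95, 29.15 and 31.77 TPM with tolvaptan and 23.79, 24.04, 24.38 and 23.82 with dDAVP, a rise of 0.29 ± 0.05 (adjusted p = 0.00534). In both genes every tolvaptan library lay above every dDAVP library.

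Zfp367, a C2H2 transcription factor, had 45.88, 48.76, 49.24 and 44.83 TPM with tolvaptan and 37.05, 38.23, 39.03 and 41.48 with dDAVP, and rose by 0.27 ± 0.05 (adjusted p = 0.00732). Zfp956 had 20.15, 19.65, 19.9 and 21.98 TPM with tolvaptan and 15.56, 17.43, 16.85 and 14.61 with dDAVP, and rose by 0.33 ± 0.07 (adjusted p = 0.0143). The groups did not overlap in either gene. Zfp41 (0.28 ± 0.06, adjusted p = 0.0117) and Zfp821 (0.23 ± 0.05, adjusted p = 0.0124) also rose without overlap.

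The other rises depended on which libraries were fitted. Zfp651, also known as Zbtb47, had the largest rise, 0.51 ± 0.14, from 5.74 to 6.5 TPM with dDAVP and from 7.27 to 11.64 with tolvaptan (adjusted p = 0.0366). The call was lost in 6 of the 8 fits, and after the shift the adjusted p was 0.0505. Zfp974 rose by 0.38 ± 0.11 (adjusted p = 0.0378) and Zfp362 by 0.35 ± 0.10 (adjusted p = 0.0436), both near 10 TPM, and neither was called after the shift. The KRAB genes Zfp26 (0.32 ± 0.09, adjusted p = 0.0338) and Zfp90 (0.30 ± 0.08, adjusted p = 0.0328) likewise missed the threshold after the shift, at adjusted p of 0.0713 and 0.0626. Zfp90 is known as a partner of the neuronal repressor REST. Zfp644, a partner of the G9a and GLP histone methyltransferases, rose by 0.24 ± 0.07 (adjusted p = 0.0395, and 0.0951 after the shift). The other rises were of Zfp867, Zfp280b, Zfp949, Zfp185, Zfp397 and Zfp623, of which Zfp280b alone was called after the shift.

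The largest fall was that of Zfp750, which encodes a regulator of terminal differentiation of epidermal keratinocytes. It had 4.76, 5.94, 3.7 and 6.19 TPM with tolvaptan and 10.54, 9.81, 9.28 and 8.81 with dDAVP. The groups did not overlap, and the fall was -0.80 ± 0.16 (adjusted p = 0.00722). It met the limit of 10 TPM through 1 dDAVP library only. Zfp91, an atypical ubiquitin ligase of the noncanonical NF-κB pathway, had 124.81, 126.1, 122.47 and 125.3 TPM with tolvaptan and 138.71, 135.83, 141.01 and 140.22 with dDAVP. Its fall was small but far beyond the spread of the libraries, at -0.16 ± 0.04 (adjusted p = 0.0194).

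The other 4 falls were KRAB genes whose lowest value was in tolvaptan replicate 4. Zfp54 had 38.41, 37.94, 42.4 and 29.22 TPM with tolvaptan and 45.26, 45.89, 46.06 and 47.56 with dDAVP, a change of -0.33 ± 0.10 (adjusted p = 0.0436). Zfp52 had 41.95, 41.77, 46.34 and 32.43 TPM with tolvaptan and 48.3, 53.45, 51.62 and 49.75 with dDAVP, a change of -0.33 ± 0.09 (adjusted p = 0.0422). Without replicate 4 both were still called, at -0.22 (adjusted p = 0.0153) and -0.22 (adjusted p = 0.0225). Each call was kept in only 2 of the 8 fits without 1 library, with adjusted p up to 0.135 for Zfp54 and 0.128 for Zfp52.

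Zfp948 and Zfp950 missed the threshold without replicate 4, at similar fold changes, and each call was kept in 1 of the 8 fits. Zfp948 had 74.08, 80.72, 91.99 and 73.36 TPM with tolvaptan and 88.65, 96.56, 98.5 and 97.75 with dDAVP, a change of -0.25 ± 0.07 (adjusted p = 0.0412), and -0.22 without replicate 4 (adjusted p = 0.0762). Zfp950 had 86.06, 106.65, 101.64 and 77.35 TPM with tolvaptan and 120.28, 125.6, 100.47 and 135.07 with dDAVP, a change of -0.37 ± 0.11 (adjusted p = 0.0493), and -0.29 without replicate 4 (adjusted p = 0.101). In both genes the groups overlapped.

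**Figure D4:**
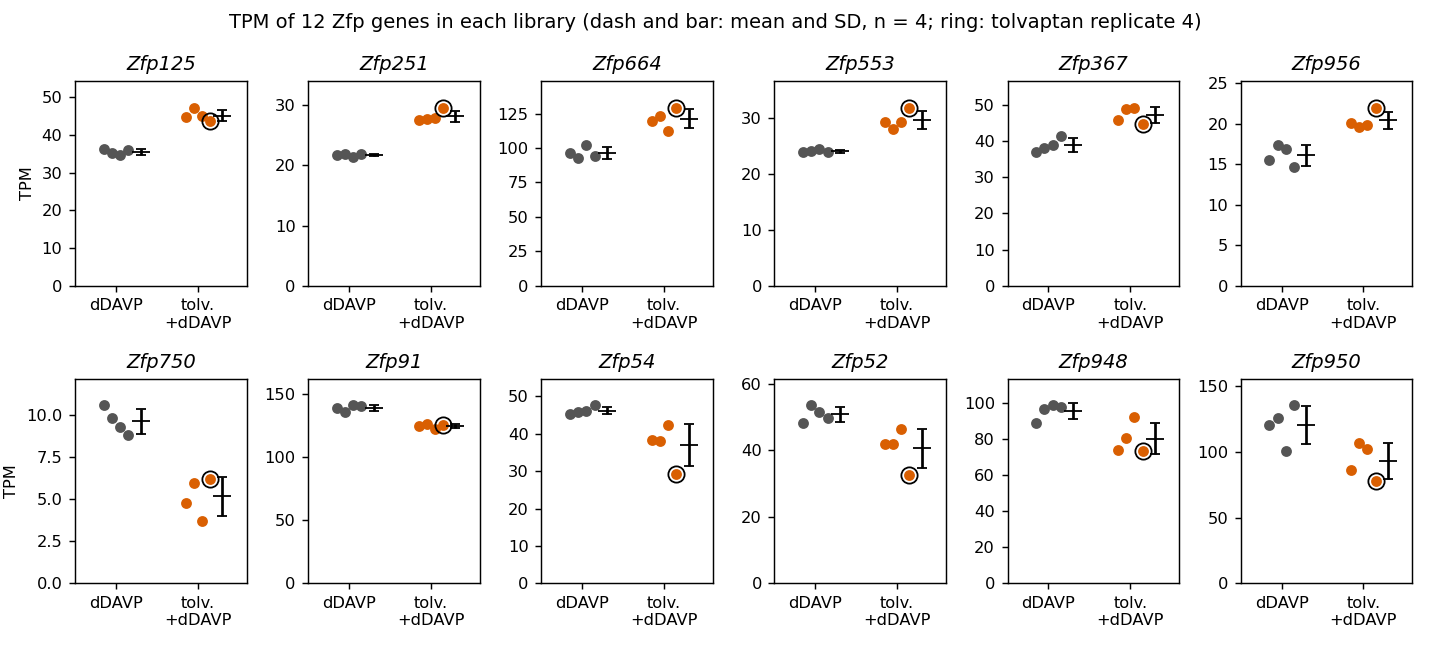
TPM (vertical axes, from 0) of 12 Zfp genes in the 4 dDAVP and 4 tolvaptan plus dDAVP libraries, with the mean and SD beside the points and a ring around tolvaptan replicate 4. The upper 6 genes rose and the lower 6 fell, and in Zfp54, Zfp52, Zfp948 and Zfp950 the ringed library is the lowest.

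The medians of the KRAB genes and of the rest lay apart with all libraries and close together without tolvaptan replicate 4, and the difference between the classes was not tested. Of 96 KRAB genes 5 rose (5.21%) and 4 fell (4.17%), with a median of 0.03 (-0.02 after the shift to a common median) and 55 genes higher on average (57.3%). Of the 115 genes without the core 15 rose (13%) and 2 fell (1.74%), with a median of 0.12 and 93 higher (80.9%). These calls include the rises of Zfp651, Zfp974 and Zfp362 and the fall of Zfp750, genes chosen through only 1 group. The medians and shares of both classes also include genes chosen in that way. Over all genes 10% rose, 6.10% fell and 63.9% were higher. Without tolvaptan replicate 4 the medians were 0.09 for both, beside 0.05 over all genes, and 14 KRAB genes rose (14.6%) and 4 fell, against 22 (19.1%) and 3 of the others, beside 14.1% and 8.39% of all genes. KRAB transcripts had a median GC content of 40.94%, against 51.09% for the others and 50.46% over all genes. The 71 Zfp genes of lowest GC content (35.33% to 41.31%, 52 of them KRAB) had a median log2 fold change of -0.0059, the middle 70 had 0.08 and the highest 70 had 0.13. The correlation of GC content with the log2 fold change across the 211 genes was rho = 0.44 with all libraries and 0.05 without replicate 4.

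By the other marks of structure, the 5 genes with a SCAN core, a domain for pairing of zinc finger proteins (Zfp24, Zfp263, Zfp445, Zfp397 and Zfp213), were all higher on average, and Zfp397 alone was called. That call was kept in 1 of the 8 fits without 1 library and was lost without replicate 4 (adjusted p = 0.0543) and after the shift, where Zfp24 and Zfp263 turned to -0.04 and -0.01. Among zinc finger families outside the Zfp names, 3 of 30 Zbtb genes rose and none fell, with a median of 0.08, and of 10 Krüppel-like factor genes 2 rose and 1 fell, beside 10% and 6.10% of all genes. Without replicate 4, 4 Zbtb genes rose and 2 fell, and 2 Krüppel-like factor genes rose and 3 fell, beside 14.1% and 8.39% of all genes. No difference between these families and the Zfp genes was tested.

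Finger genes were also grouped by their neighbours. Runs of neighbours were built from genes with at least 3 C2H2 matches or a KRAB core, and with no more than 2 other genes between them. Chromosome 17 carried 31 of the 211 genes and chromosome 7 carried 44. On chromosome 17, 1 run of 22 finger genes held 13 of the expressed Zfp genes, all with a KRAB core: Zfp52, Zfp54, Zfp53, Zfp948, Zfp946, Zfp943, Zfp942, Zfp995, Zfp51, Zfp758, Zfp677, Zfp944 and Zfp229. With all libraries 12 of the 13 were lower with tolvaptan, 3 of them called, with a median of -0.12. Over all genes tested 3589 of 9943 were lower on average, and 6.10% were called as falls. Without tolvaptan replicate 4 only 7 of 13 were lower, the median was -0.0036, and the falls called were Zfp52, Zfp54 and Zfp53, beside 8.39% of all genes.

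Zfp53, the neighbour that was not called with all libraries, had 83.82, 86.19, 88.75 and 56.35 TPM with tolvaptan and 94.24, 90.24, 97.3 and 93.41 with dDAVP. Its 4 tolvaptan values all lay below the dDAVP values, and replicate 4 stood far under the others. The change was -0.27 (adjusted p = 0.169) with that library and -0.12 (adjusted p = 0.0482) without it. In the same run Zfp51 had 30.19 to 46.46 TPM with tolvaptan and 39.26 to 44.37 with dDAVP. The cores of this pair are given because Zfp53 was called without replicate 4 and Zfp51 was not. The difference between the genes was not tested.
Zfp53, chr17:21505059-21505082, plus strand: TTGTACattgatGTGATGttgGAG
Zfp51, chr17:21461739-21461762, plus strand: CTGTACattgatGTGATGttgGAG
For Zfp51 the groups overlapped and the change was -0.10 (adjusted p = 0.573).

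In 3 other runs every expressed Zfp gene was higher on average with tolvaptan, with and without replicate 4, where 63.9% of all genes were higher with all libraries. On chromosome 6 these were Zfp746, Zfp282, Zfp212, Zfp777, Zfp398 and Zfp956 (median 0.19, and 0.14 without replicate 4), none of which matched the KRAB core and of which Zfp956 was called, and Zfp398 too without replicate 4. Zfp398 exceeded 10 TPM only in the tolvaptan group, through which it was chosen. On chromosome 9 they were Zfp560, Zfp266, Zfp846, Zfp426 and Zfp26 (0.09 and 0.17), of which Zfp26 was called, and Zfp426 too without replicate 4. After the shift to a common median Zfp560 in this run turned from 0.0033 to -0.04. On chromosome 17, in a run apart from the one above, they were Zfp955a, Zfp81, Zfp955b and Zfp101 (0.12 and 0.23), of which none was called with all libraries and Zfp81 was called without replicate 4. Zfp955a and Zfp955b share 98.2% of aligned coding bases, so their reads are hard to separate.

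**Figure D5:**
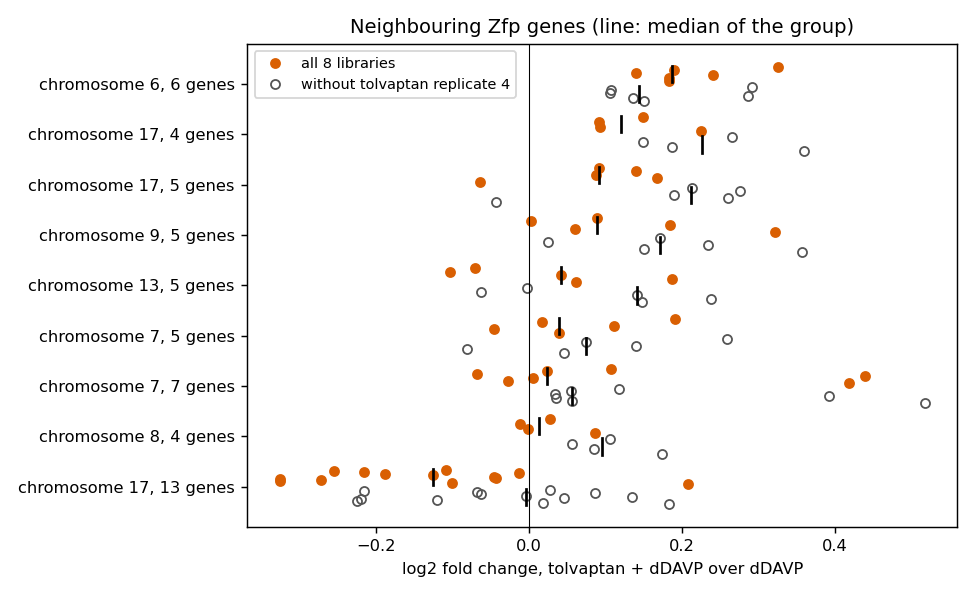
Log2 fold change (horizontal axis) of the expressed Zfp genes in 9 runs of neighbouring finger genes (vertical axis, named by chromosome and number of genes), with all 8 libraries (filled) and without tolvaptan replicate 4 (open), with a line at each median. The run of 13 genes on chromosome 17 has a median of -0.12 with all libraries and -0.0036 without replicate 4.

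The CCCH proteins of mRNA decay did not move together. Zfp36 (tristetraprolin), the founding member, had 33.64, 29.72, 30.82 and 37.23 TPM with tolvaptan and 36.71, 37.81, 38.85 and 36.63 with dDAVP, so only replicate 4 of the tolvaptan group reached the dDAVP values. The change was -0.19 ± 0.07 (adjusted p = 0.0904), with adjusted p = 0.0486 after the shift, and -0.25 ± 0.05 (adjusted p = 0.0126) without replicate 4. Zfp36l1 had 84.93, 81.79, 73.36 and 132.41 TPM with tolvaptan and 89.14, 64.85, 61.46 and 67.72 with dDAVP.

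In Zfp36l1 a single library of each group stood high, and the change of 0.37 ± 0.17 did not pass (adjusted p = 0.182). Zfp36l2 had 50.65, 57.19, 52.87 and 87.52 TPM with tolvaptan and 58.94, 54.62, 57.65 and 56.3 with dDAVP. Its change was 0.09 ± 0.14 (adjusted p = 0.708) and -0.09 ± 0.05 without replicate 4 (adjusted p = 0.243). Of the 14 genes of the CCR4-NOT deadenylase and its partners, Tob1, an antiproliferative adaptor that tethers the deadenylase, fell by 0.54 on the log2 scale (adjusted p = 7.66e-05), from 70.47 to 74.49 TPM with dDAVP to 45.59 to 52.38 with tolvaptan. Cnot1, the scaffold, rose by 0.19 (adjusted p = 0.031, and 0.0765 after the shift), and Cnot10 was at 0.13 (adjusted p = 0.0915). The median of these 14 genes was 0.05. With all libraries 1 of them rose and 1 fell, beside 10% and 6.10% of all genes. Without replicate 4, 2 rose and 2 fell, beside 14.1% and 8.39% of all genes.

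Among 11 other Zfp genes of RNA and ribosome biology, none passed the test, and 1 had an unadjusted p under 0.05. Over all 9943 genes tested 3071 had an unadjusted p under 0.05, and at the adjusted threshold 10% rose and 6.10% fell. Zfp638, an RNA-binding nuclear protein that silences unintegrated retroviral DNA, had 58.01 to 72.94 TPM with tolvaptan and 53.51 to 60.25 with dDAVP, a change of 0.21 (adjusted p = 0.0779, and 0.0147 without replicate 4). Zfp326, of a complex that links splicing to elongation, had 23.05 TPM in tolvaptan replicate 1 and 11.61 to 13.52 in the other tolvaptan libraries, against 10.92 to 12.8 with dDAVP (0.32, adjusted p = 0.244). Zfp106, an RNA-binding protein of motor neurons and muscle, was at 0.12 (adjusted p = 0.261).

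Of 15 Zfp regulators of transcription outside the KRAB branch, Zfp644 rose and Zfp750 and Zfp91 fell, with a median of 0.10, and without replicate 4, 2 rose and 2 fell. Over all genes 10% rose and 6.10% fell with all libraries, and 14.1% and 8.39% without replicate 4. Of 4 genes with a known silencing target, none passed the test, none had an unadjusted p under 0.05 and none was called without replicate 4. An unadjusted p under 0.05 was found for 3071 of all 9943 genes tested. Zfp445, a keeper of genomic imprints, was at 0.12 (adjusted p = 0.248). Zfp932 and Zfp961, repressors of endogenous retroviruses, were at -0.10 (adjusted p = 0.551) and -0.02 (adjusted p = 0.846). Zfp932 shares 96.9% of its aligned coding bases with Gm15446.

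Of the 20 genes of the KRAB corepressor machinery 1 rose and none fell, beside 10% and 6.10% of all genes. The gene that rose was Uhrf1, which brings the maintenance DNA methyltransferase to replicated DNA (0.26, adjusted p = 0.00658). On average 18 of 20 were higher, where 63.9% of all genes were, and the median was 0.10 as deposited and 0.05 after the shift. Uhrf1 had 133 to 149.99 TPM with tolvaptan and 115.53 to 124.34 with dDAVP. Dnmt1, that methyltransferase, was at 0.17 (adjusted p = 0.0577), and Atrx, a chromatin remodeler, at 0.44 with overlapping groups (adjusted p = 0.0531). Without replicate 4, 3 of the 20 rose (15%), beside 14.1% of all genes. Trim28 itself, chosen for mention after its values were seen, had 192.74 to 248.2 TPM with tolvaptan and 179.83 to 199.62 with dDAVP (0.15, adjusted p = 0.191).

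V2 receptor signaling acts through cAMP and CREB, whose full site is TGACGTCA, so promoters of the Zfp genes were searched on both strands for it and for the shorter TGACG, which the full site contains. RefSeq promoters (GRCm38.p6, 250 bases before to 50 after the start) matched 182 of the 211 genes, with 226 promoters. The full site was in 7 of them (3.10%), against 588 of all 32851 (1.79%), and the shorter one was in 33.6%, against 20.8%. The Zfp genes were chosen as expressed, whereas the background holds all RefSeq promoters, expressed here or not. The shares are therefore not matched, and their difference was not tested. The genes with the full site were Zfp266, Zfp335, Zfp367, Zfp426, Zfp523, Zfp868 and Zfp874a, and of these Zfp367 alone was called with all libraries. Without replicate 4 Zfp426 was called as well (0.23, adjusted p = 0.0202). The promoter of Zfp367 is shown because that gene was called with all libraries, with the full site in capitals.
Zfp367 promoter, chr13:64152324-64152623, minus strand: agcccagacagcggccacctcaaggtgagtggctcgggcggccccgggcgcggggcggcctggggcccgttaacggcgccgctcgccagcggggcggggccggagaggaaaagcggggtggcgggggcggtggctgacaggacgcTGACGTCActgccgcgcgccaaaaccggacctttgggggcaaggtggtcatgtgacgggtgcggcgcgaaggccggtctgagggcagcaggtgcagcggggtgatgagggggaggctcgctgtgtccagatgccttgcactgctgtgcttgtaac
Zfp367 rose when the receptor was blocked. A match of these letters is no evidence that the site is bound.

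Some values rest on reads that more than 1 gene could claim. Of the 211 genes, 16 share at least 90% of aligned coding bases with another gene over at least 50% of their coding length. Examples are Zfp934 and Zfp808 (95.9%), Zfp119b and Zfp959 (93%) and Zfp995 and Zfp947 (95%). None of the 26 genes called with all libraries is among the 16, but Zfp125, with no coding sequence, could not be searched. Without replicate 4 Zfp808 was called as a rise (0.29, adjusted p = 0.0223). The library kit is not described as keeping strand, so reads of overlapping antisense genes cannot be told apart.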

How the data were processed

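Per the deposited table, each of the 8 libraries has 1 TPM value per gene. The authors used STAR for alignment, against mouse Ensembl release 106, and RSEM to make TPM, and the tool versions are not given in the sources used here. The table's columns of the lowest and highest TPM per gene, deposited by the authors, were not needed, and the limit of 10 TPM was taken over the 8 libraries. All per-library columns matched a sample by group and replicate number. RSEM shares reads between similar genes by a model, and TPM in a library depend on each other, so scaling matters.

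Genes above 10 TPM in any library (9943) were fitted, with no pairing, in limma 3.58.1 under R 4.3.3 on log2(TPM + 1), with a variance trend, 2-sided, with Benjamini-Hochberg adjustment over all 9943. For 4 against 4 libraries an exact permutation test cannot go below p = 0.0286. The fit was tested on simulated data. Lengths, GC content, coding sequences and neighbours came from GENCODE M21 by Ensembl identifier (211 genes matched, 210 with coding sequence), and sequences from GRCm38 or RefSeq.

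Named genes were the 10 largest rises and 10 largest falls among genes called without overlap (4 falls met this), the 5 highest mean TPM, all CCCH genes, the 3 smallest p of each list, and the 4 genes on each side of the limit. Other genes were named as called, as neighbours or as holding a motif, after their values were seen. The members and lists were chosen with earlier results of these data known. Alternatives covered the pseudocount, filters, scaling, a length and GC trend, variance models, a replicate block and leaving out libraries. Removing the trend without tolvaptan replicate 4 was added after the data were seen. The authors' own comparison values were not used.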

Additional observations from a re-analysis of the deposited data

Results flagged for a closer look

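Within 82 groups of 4 libraries examined, 4 had a library far from the other 3, and chance alone flags about 1 in 20. The median log2 difference of the KRAB genes from the dDAVP mean was -0.20 in tolvaptan replicate 4 and 0.07 to 0.10 in the other tolvaptan libraries. Zfp251 had 29.57 TPM in tolvaptan replicate 4 and 27.49 to 27.84 in the others. Zfp326 had 23.05 TPM in tolvaptan replicate 1 and 11.61 to 13.52 in the others. Dnmt1 had 177.65 TPM in dDAVP replicate 4 and 192.15 to 193.52 in the others.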

How the results depend on the processing

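No named value changed its direction while called, under any alternative run. With all libraries 20 Zfp genes rose (5 KRAB, 15 others) and 6 fell (4 and 2), with medians of 0.08, 0.03 and 0.12, beside 994 rises and 607 falls over all genes. With no filter on low values 10 rose (2 KRAB, 8 others) and 2 fell (0 KRAB), with 498 rises over all genes. Requiring 4 libraries over 10 TPM, or a maximum over 20 TPM, left 1 fall outside KRAB, and the latter 3 KRAB rises. A common median left 9 rises (1 KRAB, 8 others, 576 over all genes) with medians of 0.036 for all Zfp genes and 0.072 outside KRAB, and the KRAB median turned to -0.02. Quantile normalization left 8 rises (1 KRAB, 7 others, 612 over all genes) with medians of 0.013 and 0.057, and -0.04 for KRAB. With the length and GC trend removed in each library 46 rose (13 KRAB, 33 others, 1845 over all genes). A variance without trend left 3 falls (1 KRAB) and 8 KRAB rises. Robust variance and pseudocounts of 0.1 and 5 kept every count within 1.5 times.

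The replicate numbers did not pair the libraries (correlation of same-numbered deviations -0.073 to -0.0046 over all genes), and tolvaptan libraries 1 to 4 correlated best with dDAVP libraries 3, 1, 2 and 3. With a replicate block 8 Zfp genes rose (2 KRAB, 6 others) and 2 fell (1 and 1), with 515 rises and 396 falls over all genes, and the median stayed at 0.08 (0.03 KRAB, 0.12 others). The replicate block with a common median gave 4 rises (2 KRAB, 2 others) and 4 falls (2 KRAB, 2 others), 319 rises over all genes, and medians of 0.036 and 0.072.

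Leaving out 1 library, with or without the common median or the trend removed, gave 5 to 45 rises (KRAB 1 to 14, others 4 to 32), 2 to 9 falls (KRAB 0 to 6, others 2 to 3), medians of 0.025 to 0.095 (KRAB -0.048 to 0.089, others 0.052 to 0.14), and over all genes 323 to 1828 rises and 406 to 1190 falls. For counts that changed, the cause was not tested. The unknown depth limits how precisely genes near 10 TPM were measured.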
